A study of Mus musculus with 12 samples.

Results

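Gene expression in the brain was compared between mice given krill oil and mice given water. All were exposed to chronic unpredictable mild stress (CUMS), and the study describes the tissue as whole brain. The comparison used 6 of the 12 libraries of the series, which were all those of the MS_O group (CUMS and krill oil, mice MS_O13, MS_O46 and MS_O78) and of the MS_W group (CUMS and water, mice MS_W31, MS_W75 and MS_W95). Of the 55385 genes in the table, the 21393 with a mean FPKM (fragments mapped to a gene, scaled to its transcript length and to the depth of the library) of at least 0.1 over all 12 libraries were tested. All were wild-type C57BL/6J males, 8 weeks old when bought, 3 of them picked at random from the 8 of each group. MS_O mice received 200 mg/kg krill oil by the intragastric route each day for 5 weeks, MS_W mice the same volume of water, and the stressors were applied to both for 4 weeks. The other 6 mice, given water (C_W) or krill oil (C_O) without CUMS, entered the estimate of spread and the test of whether the difference depended on CUMS. Water is not an oil, so krill oil and the intake of any oil cannot be told apart in this design.

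Krill oil carries the n-3 fatty acids eicosapentaenoic and docosahexaenoic acid, largely bound to phospholipids. In the brain these acids are built into neuronal membranes, serve as precursors of signalling lipids and are sensed by nuclear receptors of the PPAR and RXR families. CUMS is a rodent procedure used to model depression, and peptides of the hypothalamus such as corticotropin-releasing hormone, vasopressin and oxytocin take part in the response to stressors.

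The 6 libraries held between 51748181 and 72601163 estimated counts. MS_W95 stood apart from the other 5: its correlation with any MS_O library (Pearson, log2(FPKM + 1) over the tested genes) was at most 0.932, while the lowest among the other 5 was 0.970. It and the C_O72 library resembled each other (0.970). Brain regions are marked by genes that other regions lack, and markers of the cerebellum and hindbrain were high in MS_W95 while those of the striatum, cortex and olfactory bulb were low there, so counts are repeated in the 10 libraries that remain when MS_W95 and C_O72 are left out.

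Krill oil and water differed in few genes beyond the spread between mice. With the study's criteria for differentially expressed genes (DEGs), an unadjusted limma p under 0.05 and a ratio of group mean FPKM of more than 1 on the log2 scale in either direction, 305 genes were higher and 297 were lower in MS_O, which is 1.43% and 1.39% of the genes tested and 2.81% together. Of these 602 DEGs, 89 reached the mean of 0.1 FPKM only through the group in which they were higher. Of all 21393 tested genes, 592 did so. An unadjusted p under 0.05 was found for 1303 genes where 1070 would be given by chance, and only Mapt passed an adjusted p under 0.05 (limma, Benjamini-Hochberg), which is 0.00467% of the genes tested. The 3 MS_O values lay above all 3 MS_W values for 993 genes (4.64%) and below them for 1639 (7.66%). In the 10 libraries, 301 DEGs were higher (1.41%) and 417 were lower (1.95%), with 358 DEGs shared in the same direction, and 58 genes passed the adjusted threshold, of which 55 were lower. edgeR on the estimated counts gave 566 DEGs, 221 of them higher. Most DEGs were weakly expressed, since 73.8% had a mean FPKM below 1. A gene with annotated protein-coding transcripts made up 54.2% of the DEGs against 71.0% of the genes tested. The log2 fold change (log2FC) in the following is the mean log2(FPKM + 1) of MS_O minus that of MS_W, with its standard error (SE), and it understates the ratio of weakly expressed genes. The libraries are given in the order of mouse number within a group.

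**Figure D1:**
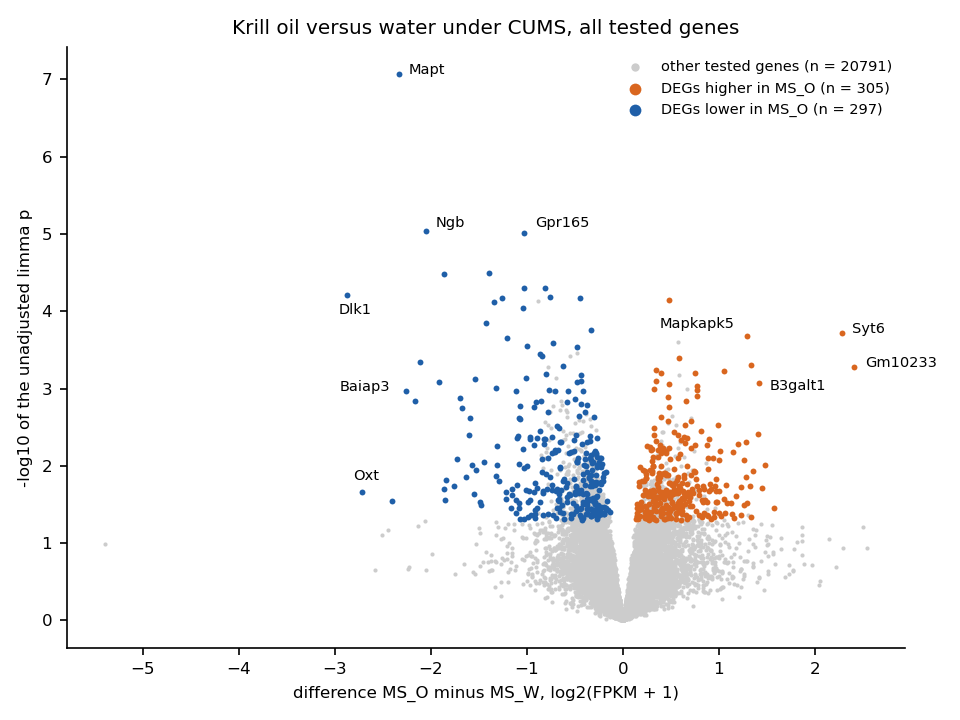
Each point is 1 of 21393 tested genes, with the log2FC of MS_O against MS_W on the x axis and -log10 of the unadjusted limma p on the y axis. DEGs are orange (305 higher in MS_O) or blue (297 lower), and Mapt stands above all other genes at a p of 8.58e-08.

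Mapt, which encodes the microtubule-binding protein tau of axons (ENSMUSG00000018411, chr11:104231390-104332090 in GRCm38), fell in MS_O. Its FPKM was 62.5, 52.4 and 64.4 in MS_W and 10.4, 11.8 and 10.9 in MS_O. The groups lay far apart, with means of 59.8 ± 6.41 and 11.0 ± 0.720 (SD, n = 3). The log2FC was -2.33 with an SE of 0.178 and an adjusted p of 0.00184, and adjusted p values in the 18 alternatives ran from 5.59e-26 (DESeq2) to 0.0239. Without CUMS the levels were 64.2, 96.7 and 60.3 in C_W and 71.9, 66.9 and 54.0 in C_O, so that the 3 MS_O libraries were the only ones below 52.4. Of the other 13 tested members of the microtubule and neurofilament list, 0 were DEGs, and 10 libraries gave the same single DEG for the list.

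The other leading genes on the lower side did not overlap between the groups, and several of them are known from hypothalamic neurons. Dlk1, a paternally expressed ligand of the Notch family that is also found in neuroendocrine cells, was at 9.46, 9.72 and 8.67 FPKM in MS_W and at 0.603, 0.588 and 0.0823 in MS_O (log2FC -2.87, SE 0.446, adjusted p 0.115). All 3 MS_W libraries, MS_W95 included, were at the same high level. Calcr, the receptor of calcitonin and, with its partner proteins, of amylin, was at 1.297, 1.294 and 0.836 in MS_W and at 0.0694, 0.0751 and 0.0001 in MS_O (log2FC -1.02, SE 0.155, adjusted p 0.115), where 0.0001 is the value listed for a gene without an estimate. In the 10 libraries the adjusted p was 0.000564 for both genes.

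The 250 bases before RefSeq starts of these genes are shown, together with those of Syt6, which leads the higher side. Both are among the 12 leading lower genes. In the 10 libraries they had the smallest unadjusted limma p values (4.83e-08 for Calcr and 6.92e-08 for Dlk1). RefSeq gives 1 start for Dlk1, 2 for Calcr and 3 for Syt6. For Syt6 the start nearest to the start of the gene in the table is used, and for Calcr that nearest start comes before the other, which lies inside the gene. The sequences are from RefSeq (GRCm38.p6), are written 5′ to 3′ on the strand of the gene, and carry CG, the dinucleotide at which promoters are methylated, in capitals.
Dlk1 (plus strand, chr12:109452573-109452822): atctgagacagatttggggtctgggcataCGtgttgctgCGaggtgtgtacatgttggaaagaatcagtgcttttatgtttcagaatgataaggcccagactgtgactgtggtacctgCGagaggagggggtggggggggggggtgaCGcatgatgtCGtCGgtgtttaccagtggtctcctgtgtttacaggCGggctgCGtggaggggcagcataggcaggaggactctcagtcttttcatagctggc
Calcr, nearest start (minus strand, chr6:3764714-3764963): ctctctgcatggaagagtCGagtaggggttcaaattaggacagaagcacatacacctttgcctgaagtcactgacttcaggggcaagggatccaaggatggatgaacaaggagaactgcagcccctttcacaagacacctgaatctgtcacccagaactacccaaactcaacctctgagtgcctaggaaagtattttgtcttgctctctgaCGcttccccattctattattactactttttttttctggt
Calcr, start inside the gene (minus strand, chr6:3763624-3763873): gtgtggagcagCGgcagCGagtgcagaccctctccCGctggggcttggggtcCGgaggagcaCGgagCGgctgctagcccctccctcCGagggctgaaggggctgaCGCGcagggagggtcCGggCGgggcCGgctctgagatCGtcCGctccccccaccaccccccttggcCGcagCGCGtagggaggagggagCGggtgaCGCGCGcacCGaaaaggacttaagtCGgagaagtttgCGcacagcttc
Syt6 (plus strand, chr3:103574995-103575244): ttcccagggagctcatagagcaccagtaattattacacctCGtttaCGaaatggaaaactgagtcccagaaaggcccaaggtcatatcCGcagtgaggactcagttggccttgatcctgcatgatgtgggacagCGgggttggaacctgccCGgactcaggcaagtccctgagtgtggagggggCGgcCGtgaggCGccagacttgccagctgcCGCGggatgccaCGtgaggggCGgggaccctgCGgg
The window of Dlk1 holds 8 CG dinucleotides, those of Calcr 2 at the nearest start and 24 at the other, and that of Syt6 13. Among all genes of the RefSeq table, taking the first start listed for each, 59.3% hold at most as many as Dlk1, 29.6% at most as many as Calcr at its nearest start and 70.4% at most as many as Syt6. Methylation was not measured here, and of the 24 leading genes 14 had an entry in the table.

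Other lower genes act in hypothalamic or hormone signalling. Irs4, an adaptor of the insulin and leptin receptors, was at 2.61, 2.22 and 1.04 FPKM in MS_W and at 0.0758, 0.128 and 0.0708 in MS_O (log2FC -1.40, SE 0.201). The orphan receptor Gpr101 was at 3.97, 3.36 and 2.09 against 0.541, 0.610 and 0.402 (log2FC -1.42, SE 0.243). Magel2, an imprinted gene of the Prader-Willi region, was at 2.49, 2.53 and 1.08 against 0.398, 0.187 and 0.266 (log2FC -1.20, SE 0.218). In each of these genes MS_W95 was the lowest MS_W library and still lay above every MS_O library. Peg10, an imprinted gene derived from a retrotransposon, was at 12.4, 13.8 and 9.52 against 3.26, 2.18 and 2.24 (log2FC -1.86, SE 0.267, adjusted p 0.115).

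Lower genes with other roles were Ngb, the oxygen-binding neuroglobin, Doc2b, a calcium sensor of transmitter release, Dgkk, which turns diacylglycerol into phosphatidic acid, the endosomal GTPase Rab9b and the orphan receptor Gpr165. Ngb was at 9.09, 6.06 and 6.53 FPKM in MS_W and at 1.87, 0.543 and 0.697 in MS_O (log2FC -2.05, SE 0.256, adjusted p 0.0698). Doc2b was at 16.4, 17.7 and 19.9 against 7.07, 6.59 and 7.25 (log2FC -1.25, SE 0.196, adjusted p 0.115). Doc2b was the most even of these, with little spread inside either group. Dgkk was at 1.75, 1.53 and 2.02 against 0.134, 0.0850 and 0.0425, Rab9b at 7.36, 6.68 and 9.004 against 3.92, 2.61 and 3.17, and Gpr165 at 2.60, 2.18 and 2.07 against 0.595, 0.826 and 0.436. The log2FC of these 3 genes lay between -1.02 and -1.34. In C_W, the levels of Ngb (1.63, 1.03 and 2.05), Peg10 (2.38, 1.93 and 2.59), Dlk1 (0.229, 0.220 and 0.111) and Doc2b (3.54, 2.87 and 2.24) were nearer to MS_O than to MS_W, and the same was seen for Calcr, Irs4, Dgkk, Gpr101, Magel2, Gpr165 and Rab9b. Mapt was the exception among the 12, with C_W at the level of MS_W.

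**Figure D2:**
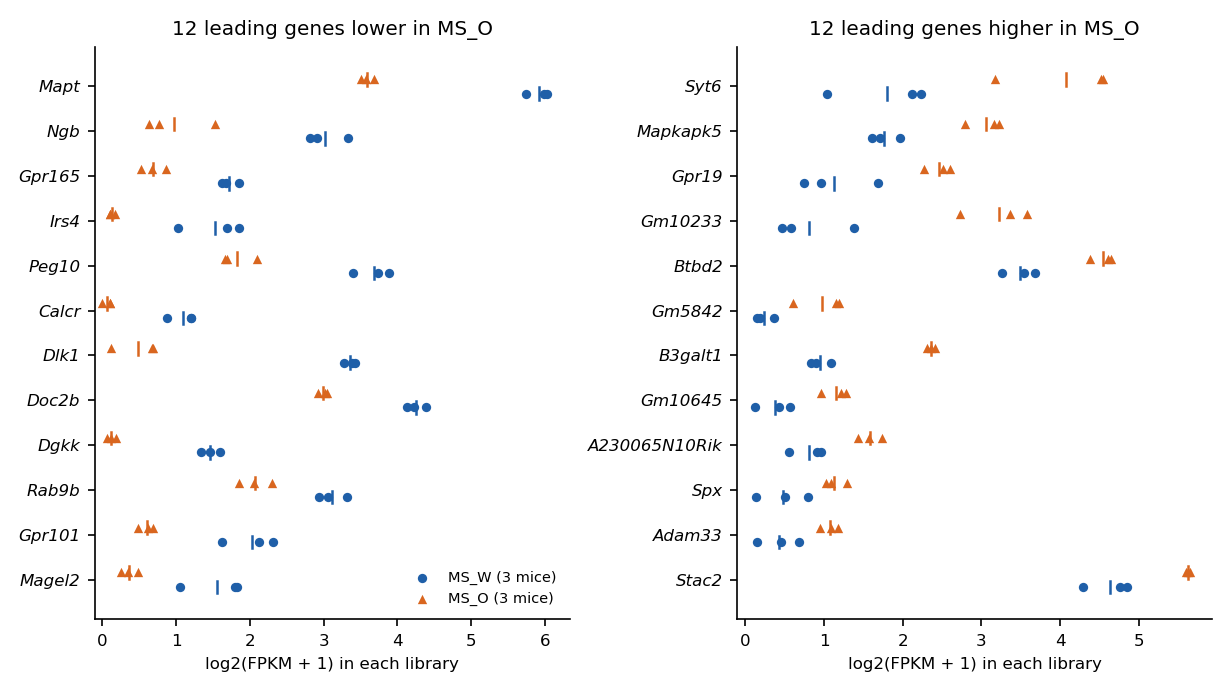
Values of log2(FPKM + 1) in each MS_W (blue circles) and MS_O (orange triangles) library for the 12 leading lower genes (left) and the 12 leading higher genes (right), with a vertical bar at each group mean. The groups do not overlap in any of the 24 genes, a condition of their choice.

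On the higher side no gene passed the adjusted threshold, and the smallest adjusted p among the leading 12 was 0.230. It belonged to Syt6, which encodes a synaptotagmin of vesicle exocytosis, with 3.72, 3.35 and 1.04 FPKM in MS_W and 8.01, 21.9 and 22.4 in MS_O (log2FC 2.28, SE 0.406). MS_O46 and MS_O78 were alike, and MS_O13 was at less than their level. Mapkapk5, a kinase activated by MAP kinases, was at 2.92, 2.05 and 2.29 against 5.95, 8.36 and 7.94 (log2FC 1.296, SE 0.233), but 56.5% of its exon bases are shared with other genes on the same strand, so its reads could be split. Btbd2, a gene of the BTB domain family, was at 11.8, 10.6 and 8.62 against 19.9, 23.4 and 24.2 (log2FC 1.05, SE 0.217). Stac2, an adaptor of voltage-gated calcium channels, was at 28.0, 26.2 and 18.6 against 49.4, 47.6 and 48.6 (log2FC 0.99, SE 0.258), and it was no longer a DEG in the 10 libraries. C_W libraries (61.0, 58.2 and 62.2) were above both for Stac2.

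The remaining leading higher genes were less abundant. Gpr19, an orphan receptor, was at 2.21, 0.951 and 0.679 FPKM in MS_W and at 4.71, 5.07 and 3.83 in MS_O. Gm10233 showed the largest log2FC of the 12 (2.41, SE 0.488), from 0.387, 0.494 and 1.60 to 10.9, 9.31 and 5.63, and it was 1 of 3 genes that were higher at an adjusted p under 0.05 in the 10 libraries (0.00204). Spx, which encodes the peptide spexin, was at 0.732, 0.0953 and 0.421 against 1.03, 1.45 and 1.12, and the protease gene Adam33 at 0.601, 0.365 and 0.107 against 0.939, 1.27 and 1.13. Spx and Adam33 were both near the mean of 1 FPKM in the higher group that was required of a leading gene. The predicted genes Gm5842, Gm10645 and A230065N10Rik lay between 0.0911 and 0.940 in MS_W and between 0.518 and 2.33 in MS_O. Of the exon bases of Gm10645, 75.1% lie opposite exons of Tbc1d9, and of A230065N10Rik 55.4% lie opposite Me3, and reads of such pairs can be told apart only if strand was used in counting, which is not stated.

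The study singled out Gcnt1, Plekha2, Sgpp2 and B3galt1 for this comparison, so their values are no independent evidence. B3galt1, which adds galactose in the synthesis of glycan chains on lipids and proteins (chr2:67565871-68122689), was at 0.863, 1.13 and 0.790 FPKM in MS_W and at 4.33, 3.95 and 4.15 in MS_O (log2FC 1.42, SE 0.307, adjusted p 0.368). The libraries outside the comparison lay at either of these levels, at 0.860, 3.74 and 4.07 in C_W and at 0.852, 0.914 and 0.728 in C_O. Plekha2, a phosphoinositide-binding adaptor, was a DEG (log2FC 1.13, SE 0.452), although MS_O13 (6.42) lay within the MS_W range (2.34 to 7.96), and it was no DEG in the 10 libraries. Gcnt1, which branches O-glycans, was at 1.74, 0.992 and 0.971 against 0.903, 4.74 and 4.53 (unadjusted p 0.0660). Sgpp2, a phosphatase of sphingosine 1-phosphate, was at 4.61, 5.79 and 25.1 against 5.65, 3.78 and 3.26 (unadjusted p 0.146). For Gcnt1 and Sgpp2 a single library, MS_O13 or MS_W95, stood apart within its group.

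**Figure D3:**
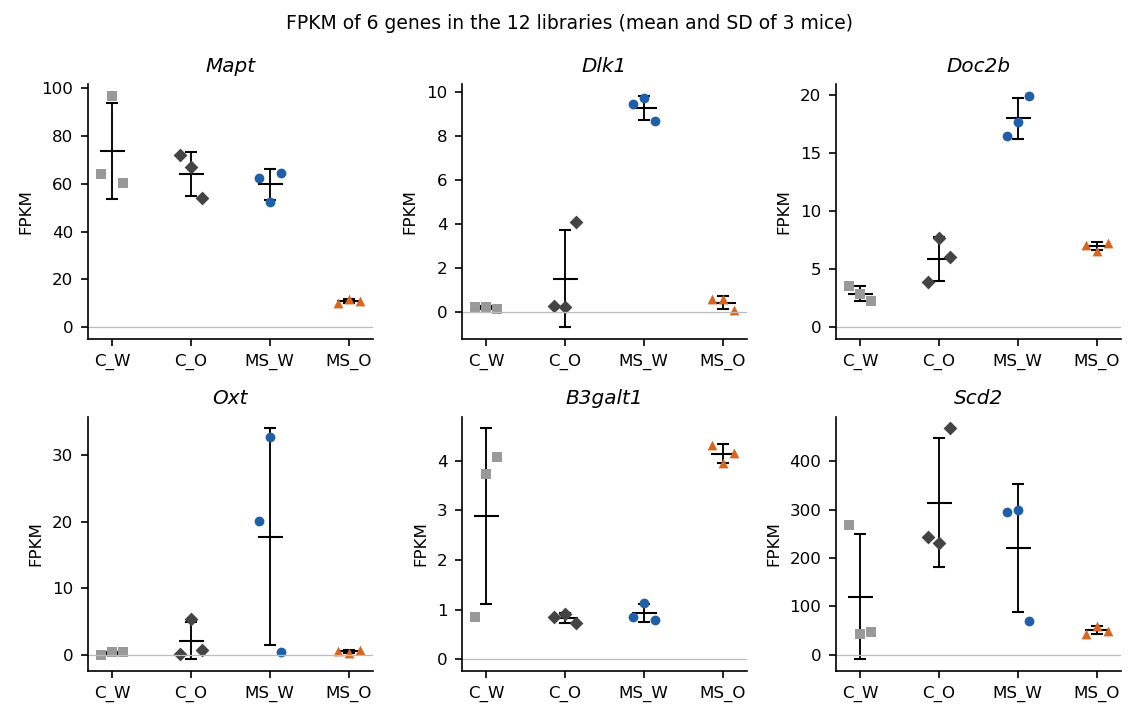
FPKM of Mapt, Dlk1, Doc2b, Oxt, B3galt1 and Scd2 in each of the 12 libraries by group, with the mean and SD of 3 mice as horizontal lines and error bars. Mapt is low in MS_O alone, Dlk1 and Doc2b are high in MS_W, Oxt is high in 2 MS_W libraries, and B3galt1 and Scd2 each lie at a high or a low level that also divides C_W.

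Listed regulators of the hypothalamus were DEGs on the lower side, and the libraries did not hold the same amount of hypothalamic markers. Of the 12 transcription factors listed for the hypothalamus, 4 passed the filter (Otp, Lhx8, Nkx2-1 and Fezf1), and these were DEGs on the lower side, of which Otp did not overlap. Over all tested genes, 1.39% were lower DEGs and 7.66% lay lower without overlap. Nkx2-1 and Fezf1 passed only through MS_W, their mean over the other 9 libraries being 0.0828 and 0.0106 FPKM, so a lower value in MS_O was partly fixed by the filter. Their summed FPKM was 6.84, 7.63 and 1.07 in MS_W, 0.640, 0.405 and 0.474 in MS_O. The defining markers Nkx2-1, Lhx8 and Fezf1 were listed at 0.0001 in MS_W95, and Otp, a factor of neuroendocrine neurons, was at 1.56, 1.36 and 1.07 against 0.0791, 0.0218 and 0.0202 (log2FC -1.16, SE 0.421). Otp was at most 0.0320 in C_W and reached 3.24 in C_O72. The part of these markers in the results below was not tested. In whole tissue, fewer cells of a type and less RNA per cell cannot be told apart.

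Hypothalamic peptides were divided. Of 21 tested peptides, 3 were DEGs, all lower (Oxt, Cartpt and Hcrt), where 1.39% of all genes were lower DEGs. Hcrt passed the filter only through MS_W. The 10 libraries gave 7 lower and 1 higher. With all 12 libraries, the median log2FC was -0.08 beside -0.02 over all genes. Oxt, oxytocin, was at 20.2, 32.7 and 0.392 FPKM in MS_W and at 0.592, 0.272 and 0.721 in MS_O (log2FC -2.72, SE 1.01, adjusted p 0.790). The high values came from MS_W31 and MS_W75, and MS_W95 lay within the MS_O range. Hcrt, the precursor of the orexins that keep animals awake, was at 5.601, 0.858 and 0.144 against 0.110 and, in 2 libraries, 0.0001. Cartpt, whose peptide lowers feeding, was at 12.97, 22.4 and 28.8 against 4.42, 8.56 and 11.1 (log2FC -1.32, SE 0.445), and here MS_W95 was the highest and the gene was no DEG in the 10 libraries. Ucn3, urocortin 3, an agonist of the second corticotropin-releasing hormone receptor, was at 1.09 and 0.860 in MS_W31 and MS_W75 and at 0.0001 in the other 4. Avp, vasopressin, which is no DEG and was chosen after its values were seen, followed Oxt with 32.3, 59.3 and 0.185 against 1.49, 0.916 and 2.10. Of the 16 tested genes of the stress axis list, which holds the hormones, receptors and glucocorticoid targets of that response, Ucn3 and the vasopressin receptor Avpr1a were the 2 DEGs. Both were lower, where 1.39% of all genes were lower DEGs, and Ucn3 passed the filter only through MS_W.

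Of 29 tested receptors of neuropeptides, 7 were DEGs, all lower (1.39% of all genes were lower DEGs), of which Calcr, Galr1 and Sstr5 passed the filter only through MS_W. By sign 17 were lower and 12 higher, and the 10 libraries gave 9 lower DEGs. Without overlap, 9 lay on the lower side and 1 on the higher side, where 7.66% and 4.64% of all genes did. Tacr3, the neurokinin B receptor, was at 1.34, 2.30 and 1.76 FPKM in MS_W and at 0.389, 0.325 and 0.415 in MS_O (log2FC -1.01, SE 0.214, adjusted p 0.361). Galr1, a galanin receptor, was at 0.560, 0.546 and 0.228 against 0.0581, 0.0578 and 0.0195, and Trhr, the receptor of thyrotropin-releasing hormone, at 1.37, 0.690 and 0.591 against 0.420, 0.355 and 0.392. In all 3 receptors MS_W95 lay above MS_O, unlike in Oxt and Ucn3. The median log2FC over the 29 receptors was -0.14, and their mean differed by -0.06. Among opioid genes 1 of 7 was a DEG, where 2.81% of all genes were. It was the delta receptor Oprd1, higher in MS_O with 3.17, 2.34 and 0.547 against 3.21, 5.76 and 4.11. In the 10 libraries Oprd1 was no DEG (p 0.0656) and the list had 2 DEGs, both lower, with a median that went from -0.23 to -0.53.

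The KEGG pathway of neuroactive ligand-receptor interaction, which the study named from these same samples and which is therefore not independent, held 236 tested genes. Of these 22 were DEGs on the lower side and 3 on the higher side, together 10.6% beside 2.81% of all genes. Without overlap, 32 lay lower and 13 higher, where 7.66% and 4.64% of all genes did. Of the 22 lower DEGs, 18 were free of overlap and 21 were also DEGs in the 10 libraries, where 36 were lower and 2 higher. Of the 25 DEGs, 10 passed the filter only through the group in which they were higher. Its most abundant DEGs were Agt, Oxt and Ednrb. Agt, the precursor of angiotensins and in brain a product of astrocytes, was at 20.5, 19.96 and 63.8 FPKM in MS_W and at 3.25, 4.06 and 8.24 in MS_O (log2FC -2.40, SE 0.942, adjusted p 0.805). Ednrb, the endothelin B receptor, was at 5.92, 9.12 and 11.8 against 3.05, 6.78 and 3.51, with overlap. The GO terms of neuropeptide signaling pathway (2 higher and 10 lower DEGs of 77), cytosolic calcium increase (1 and 13 of 118), peptide hormone binding (1 and 7 of 34), feeding behavior (0 and 6 of 29) and positive regulation of blood pressure (0 and 6 of 29) had the same leaning, and share many genes with the pathway. Their shares of DEGs ran from 11.9% to 23.5%, beside 2.81% of all genes. Ecel1, an endopeptidase of neurons counted in the first of these, was at 12.9, 15.8 and 4.77 against 2.64, 1.95 and 2.47. Mrap2, which assists melanocortin receptors in the control of feeding, was at 7.14, 6.49 and 11.7 against 3.21, 1.72 and 2.14, and P2ry1, a receptor of ADP, at 2.05, 2.07 and 1.97 against 0.429, 0.646 and 0.603. P2ry1 was even in MS_W, though 23.1% of its exon bases lie opposite another gene.

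Among the other study terms counted here, those with at least 53 tested genes held DEGs at shares from 1.47% to 7.84%, beside 2.81% of all genes. Axon (430 genes) had 4 higher and 9 lower, neuron projection (472) 4 and 10, neuronal cell body (523) 3 and 7, multicellular organism development (817) 8 and 13, and Wnt signaling (139) 3 and 2. The dopaminergic synapse had 119 genes (1 and 2), the synaptic vesicle cycle 68 (0 and 1) and PPAR signaling 53 (1 and 3). Calcium signaling (162 genes, 1 and 7), receptor complex (166, 1 and 7) and AMPK signaling (103, 2 and 4) were also counted. Glucose homeostasis (102, 3 and 5), terminal bouton (66, 1 and 4) and amphetamine addiction (60, 2 and 1) made up the rest of that size. Among terms of that size, the lowest share was in the synaptic vesicle cycle and the highest in glucose homeostasis. Smaller study terms not described above had shares from 4.08% (regulation of lipolysis, 49 genes) to 33.3% (catecholamine biosynthesis, 6 genes). Neuropeptide hormone activity (22 genes) had 22.7% and eating behavior (34 genes) 17.6%. Grm2, a presynaptic glutamate receptor counted under axon, was at 8.51, 5.77 and 4.02 FPKM in MS_W and at 11.8, 16.4 and 23.1 in MS_O (log2FC 1.35, SE 0.443). Calb1, a calcium buffer abundant in Purkinje cells, was at 25.4, 26.1 and 126 against 23.2, 7.84 and 13.2, and it was no DEG without C_O72 and MS_W95. Kcnj5, a subunit of the potassium channels opened by G proteins, was at 0.849, 0.622 and 0.473 against 0.215, 0.186 and 0.142 (log2FC -0.47, SE 0.0889). Paqr7, a membrane progesterone receptor, was at 16.5, 15.3 and 21.6 against 6.57, 4.78 and 4.98, and Rab11b, a GTPase of recycling endosomes, at 13.9, 15.2 and 12.3 against 31.9, 35.4 and 37.3. Rab11b was also low in 1 C_O library (10.3), where the other 5 libraries without CUMS lay between 32.7 and 37.6.

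In the lists of transmitter release and transmitter identity 5 genes were DEGs. Of 23 tested genes of vesicle release, Baiap3, Unc13c and Doc2b were DEGs, all lower (1.39% of all genes were lower DEGs), and the median was 0.10. Baiap3, a Munc13-related protein that acts in dense-core vesicle traffic, was at 20.6, 17.4 and 13.4 FPKM in MS_W and at 2.09, 3.17 and 3.06 in MS_O (log2FC -2.26, SE 0.505, adjusted p 0.376). Unc13c, which primes vesicles, was at 5.10, 6.18 and 10.6 against 2.33, 0.981 and 1.29 (log2FC -1.69, SE 0.388, adjusted p 0.432). Abundant release genes such as Snap25 (242, 262 and 339 against 386, 252 and 272) overlapped between the groups. The list of fast transmitter identity lay lower in MS_O by its score (mean log2(FPKM + 1) of its members), at 3.39, 3.57 and 3.77 against 3.01, 3.21 and 3.26. Its median log2FC was -0.36, with 8 of 11 members below 0 and 3 above. Among the 3 was Slc17a7, also a cortex marker, at 106, 100 and 41.5 against 164, 205 and 239 (log2FC 1.38, SE 0.709), no DEG. The summed FPKM of the 11 genes went the other way in MS_O46 and MS_O78 (366, 368 and 270 against 325, 549 and 552). Of these 11 genes 2 were DEGs and both are cholinergic: Chat, which makes acetylcholine, was at 2.10, 2.75 and 1.53 against 0.763, 0.432 and 0.731, and the choline transporter Slc5a7 at 1.92, 2.49 and 2.05 against 0.825, 0.336 and 0.351. Lhx8, a factor of forebrain cholinergic neurons as well as of the hypothalamus list, was at 3.08, 3.99 and 0.0001 against 0.276, 0.267 and 0.365.

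For the monoamines, Ddc, which makes dopamine and serotonin from their precursors, was lower at 2.73, 3.19 and 8.81 FPKM against 1.43, 2.08 and 1.61, and Pnmt, which makes adrenaline, was the other DEG of 14 genes (0.0508, 0.459 and 0.0001 against 0.405, 0.464 and 0.529). Ddc was no DEG in the 10 libraries. Among 14 dopamine and serotonin receptors, Htr1b, a presynaptic inhibitory receptor, was lower (5.27, 5.71 and 4.13 against 3.69, 2.13 and 1.54; log2FC -0.85, SE 0.197, adjusted p 0.442), and the channel Htr3a was higher (4.27, 2.98 and 0.337 against 3.66, 5.88 and 6.06). Each of these lists of 14 held 1 higher and 1 lower DEG, where 2.81% of all genes were DEGs. The immediate early list had the highest median of the pathway lists, 0.80, with 14 of 15 members above 0. The scores of the groups did not overlap: the mean log2(FPKM + 1) was 3.46, 3.45 and 2.06 in MS_W and 3.60, 3.83 and 3.60 in MS_O, and without MS_W95 the difference shrank from 0.69 to 0.22. Fosb was its only DEG (2.70, 2.58 and 0.306 against 1.89, 5.48 and 5.64) and was lost in the 10 libraries.

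**Figure D4:**
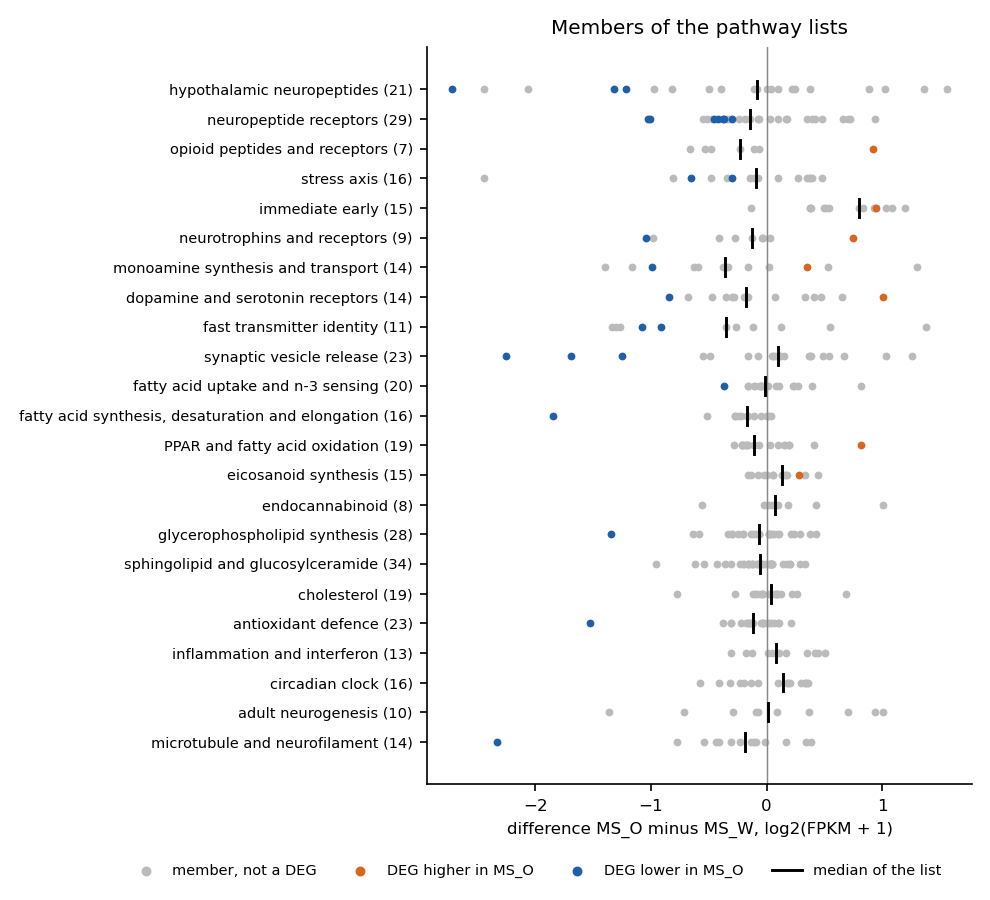
Log2FC of MS_O against MS_W for each tested member of 23 pathway lists, with DEGs in orange (higher) or blue (lower), other members in grey, a black bar at the list's median and the number tested in brackets. Medians lie between -0.36 and 0.80, and the DEGs of the lists for hypothalamic neuropeptides, neuropeptide receptors and synaptic vesicle release are all on the lower side.

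Of the 159 tested genes in 8 lists of lipid metabolism, the group nearest to the treatment, 5 were DEGs, or 3.14%, close to the 2.81% of all genes. Of 20 tested genes of fatty acid uptake and n-3 sensing 1 was a DEG, of 16 of fatty acid synthesis 1, of 19 of PPAR and fatty acid oxidation 1, of 15 of eicosanoid synthesis 1, of 28 of glycerophospholipid synthesis 1 (Dgkk), and of 8 endocannabinoid, 34 sphingolipid and 19 cholesterol genes 0. The medians of these 8 lists lay between -0.17 and 0.13. The scores of 3 of them were lower in MS_O without overlap, by 0.26 for fatty acid synthesis (3.78 to 4.06 in MS_W and 3.52 to 3.69 in MS_O), and by 0.10 each for glycerophospholipid synthesis (3.06 to 3.10 and 2.96 to 3.01) and sphingolipid genes (2.943 to 3.12 and 2.90 to 2.941). Of all 45 lists scored, 10 lay lower without overlap and 1 higher. Pparg, a nuclear receptor that binds fatty acids, was higher in MS_O at 1.52, 2.53 and 2.13 FPKM against 0.820, 0.643 and 0.719 in MS_W (log2FC 0.81, SE 0.217, adjusted p 0.638), with C_W at 1.76, 1.84 and 1.39. Cd36, a fatty acid transporter, was lower, though it was weakly expressed, at 0.346, 0.189 and 0.452 against 0.0821 and, in 2 libraries, 0.0001. It passed the filter only through MS_W. Scd2, the main stearoyl-CoA desaturase of the brain, was at 296, 298 and 69.1 against 42.6, 59.4 and 49.5 (log2FC -1.85, SE 0.721, adjusted p 0.805). Scd2 was also divided without CUMS, at 269, 42.6 and 47.4 in C_W and 244, 230 and 468 in C_O. Alox12, a lipoxygenase, was higher at 0.182, 0.194 and 0.143 against 0.235, 0.408 and 0.662. Apoa2, an apolipoprotein of the PPAR pathway, was lower at 1.48, 1.3 and 1.92 against 0.573, 0.814 and 0.498. The abundant genes St3gal5, which makes the ganglioside GM3 (49.0, 55.1 and 51.4 against 68.1, 55.4 and 56.8; p 0.214), Apoe (483, 309 and 370 against 373, 507 and 343; p 0.735) and Abhd12 (107, 95.4 and 90.8 against 121, 107 and 106; p 0.178) did not pass the test.

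In defence and rhythm lists, Gpx3, an extracellular glutathione peroxidase, was the only DEG of 23 antioxidant genes, at 18.2, 16.4 and 19.6 FPKM in MS_W and 4.57, 5.67 and 6.75 in MS_O (log2FC -1.53, SE 0.497, adjusted p 0.768). C_W (5.03, 4.18 and 3.66) was at the level of MS_O. None of 13 genes of inflammation and interferon, 16 of the circadian clock or 10 of adult neurogenesis was a DEG, and Il1b, Tnf, Il6 and Ccl2 did not pass the filter. B2m (p 0.508), Tef (p 0.203) and Sox2 (p 0.640) were the most abundant of these lists. Casp1, which activates interleukin 1 beta and was counted under amyotrophic lateral sclerosis, was higher at 0.496, 0.388 and 0.405 against 0.536, 1.03 and 1.25.

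Markers of regions and cell types were set beside these results for each library. The score of a list is the mean log2(FPKM + 1) of its tested markers. The cerebellum score was 0.98, 0.73 and 5.75 in MS_W and 0.75, 1.06 and 1.03 in MS_O, and Car8, a gene of Purkinje cells, reached 222 FPKM in MS_W95 against at most 2.09 in the other 5. Hox genes of the hindbrain (Hoxb5 at 3.83 in MS_W95 and at most 0.0210 in the other 5) and Tph2, the serotonin enzyme of raphe neurons (20.5 against at most 0.223), gave the same picture. Hbb-bs of blood was at 136 in MS_W95 against at most 22.3 in the other 5. Outside the comparison, Hoxb5 was at 9.78 in C_O72, and Hbb-bs was at 67.1, 72.1 and 54.8 in C_W. In the 5 compared libraries other than MS_W95, the cerebellum score was at most 1.06 and the hindbrain Hox score at most 0.00809. Whether tissue from these regions was present in them to the same extent was not tested. The olfactory bulb score was 3.15, 2.57 and 0.91 in MS_W and 2.32, 4.20 and 4.15 in MS_O, with Tbx21 of mitral cells at 1.49, 8.64 and 8.01 in MS_O, so MS_O13 and the other MS_O libraries also differed. Syt6, Gcnt1, Plekha2 and Fosb were likewise lowest in MS_O13 among the MS_O libraries, and the part of these markers in those results was not tested. The striatum score (4.79, 5.36 and 2.25 against 4.66, 3.97 and 3.70) was highest in MS_W31 and MS_W75.

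Among the lists for cell types, scores of pan-neuronal, microglia, endothelium, mural and meninges genes overlapped between the groups, with differences from -0.10 to 0.25, and 0 of their 54 tested members were DEGs. The oligodendrocyte score was 4.86, 4.97 and 5.54 in MS_W and 4.90, 4.71 and 4.45 in MS_O. All 12 members were below 0, 5 of them without overlap (7.66% of all genes lay lower without overlap), and none was a DEG. Oligodendrocyte precursor markers lay lower in MS_O without overlap (2.83, 2.92 and 2.89 against 2.71, 2.56 and 2.63), and for ependyma, with all 6 members below 0, the difference was -0.62 and -0.07 without MS_W95. Astrocyte genes included 1 DEG of 12 (Agt), and the score was 4.50, 4.44 and 5.25 against 4.12, 4.39 and 4.46. The DEGs of the thalamus (Gbx2 and Tcf7l2), hippocampus (C1ql2), midbrain dopamine (Ddc) and choroid plexus (Prlr) lists were lower, and that of the olfactory bulb (Tbx21) was higher. Prlr passed the filter only through MS_W. C1ql2, a synaptic organizer of dentate granule cells, was at 1.51, 1.15 and 1.87 against 0.272, 0.323 and 0.338 (log2FC -0.93, SE 0.265), and the hippocampus score, 1.51, 1.39 and 1.401 against 1.39, 1.23 and 1.26, differed by -0.14.

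**Figure D5:**
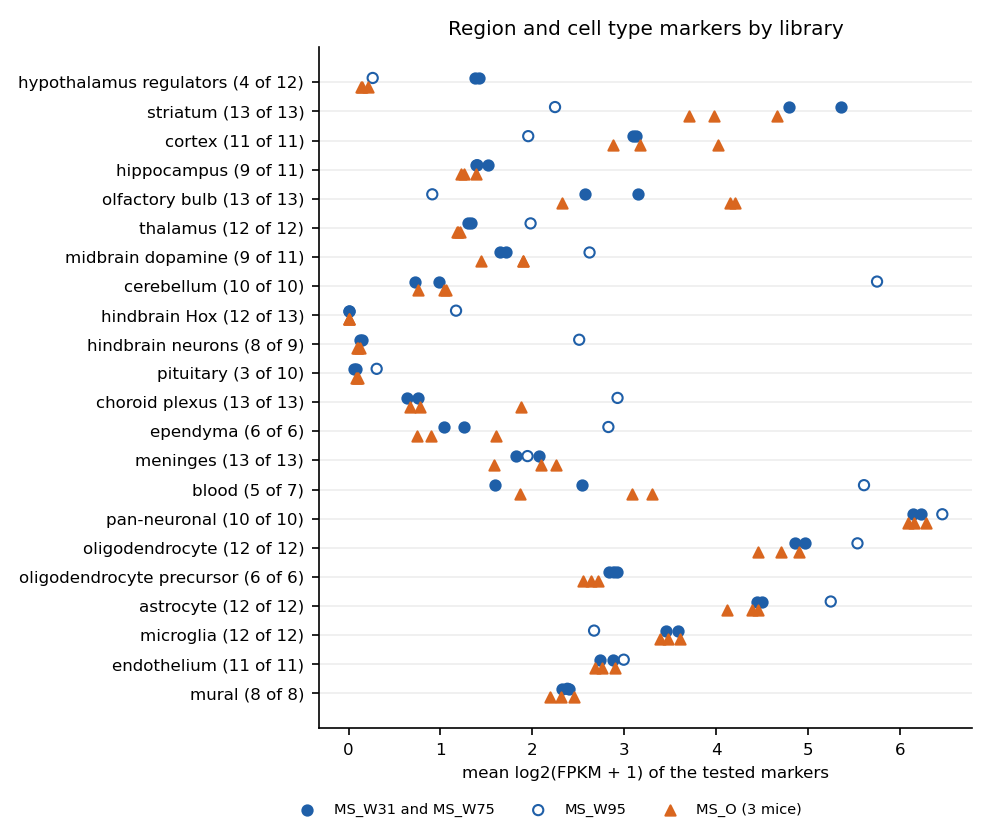
Mean log2(FPKM + 1) of the tested markers of 22 regions and cell types in each library, with MS_W31 and MS_W75 as filled blue circles, MS_W95 as an open circle and MS_O as orange triangles, and tested of listed markers in brackets. MS_W95 lies far from the other libraries shown for the cerebellum (5.75), hindbrain and blood lists, and MS_W31 and MS_W75 for the hypothalamus (1.37 and 1.42).

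Whether the difference between krill oil and water depended on CUMS was asked by the interaction of the 2 factors, (MS_O minus MS_W) minus (C_O minus C_W). At an adjusted p under 0.05 the limma fit found 0 genes, the smallest adjusted p being 0.106, while 1546 genes had an unadjusted p under 0.05, DESeq2 found 151, edgeR 0 and the 10 libraries 31. Of the 602 DEGs, 378 had an unadjusted interaction p under 0.05. The DEGs were chosen by MS_O minus MS_W, which is part of this contrast, so that count was partly fixed by the choice. The group means of C_O and C_W came into this contrast as well as those of MS_O and MS_W, so that the C_O72 library, which resembles MS_W95, bears on it. Mapt had an interaction adjusted p of 0.106, Doc2b of 0.199 and Peg10 of 0.221. For a single gene, the smallest p that exact two-sided permutation of 3 and 3 mice allows is 0.1.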

How the data were processed

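Poly(A) RNA of tissue described as whole brain was sequenced by the authors, with 1 library per mouse. There were 3 mice in each of 4 groups, which were taken from the labels. The submitters' processing notes name cutadapt 1.9, HISAT2 2.0.4, StringTie 1.3.4d, edgeR and DESeq2 and the mm10 build, and the study's methods name Ballgown for the selection of DEGs. FPKM values were deposited by the authors for 55385 genes, with 0.0001 listed where there was no estimate. Estimated count values were also deposited. For 819 genes with a single transcript they followed FPKM times length (median deviation 0.0171%), so they are derived from coverage, and they were rounded to whole numbers. Whether strand and reads with several alignments were used in counting is not given in the sources used here.

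The tested genes (mean FPKM 0.1 or more) entered 1 model of 4 groups and 12 libraries, with log2(FPKM + 1) as the response (pseudocount 1). It was run in R 4.3.3 with the lmFit and trended eBayes functions of limma 3.58.1. p was adjusted by Benjamini-Hochberg over 21393 genes. DEG criteria were those of the study. The members, gene lists and terms were chosen with earlier results of these data known. Genes are named if they led in either direction (12 each: adjusted p under 0.05, then smallest p among DEGs without overlap and with a mean of at least 1 FPKM in the higher group), if they are up to 4 DEGs of a list by size of log2FC or, without a DEG, its most abundant member, if the study singles them out, or if they are up to 3 most abundant DEGs of a term. Alternatives were other pseudocounts, filters and scalings, 2 groups only, robust eBayes, array weights, DESeq2 1.42.0 and the quasi-likelihood test of edgeR 4.0.16 (both on estimated counts) and leaving out libraries. The main limma fit, edgeR and DESeq2 were tested on simulated data, and the other alternatives were not. Gene models were from GENCODE M21, and figures were made with Python 3.11.15 and matplotlib 3.10.9. The labels do not say how mice were caged, so the p-values measure the spread between these mice. A few genes that the naming rule would cover are not reported here.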

Additional observations from a re-analysis of the deposited data

Results flagged for a closer look

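For 14 named genes the 3 krill oil values lay wholly on one side of the 3 water values under CUMS and wholly on the other side without it. These genes were named as DEGs of MS_O against MS_W, which is also part of the interaction. The difference under CUMS was therefore largely fixed by their choice, and how many of all genes show the pattern is not given here. With groups of 3 such a pattern was not tested by itself, and the interaction (limma, log2 scale, MS_O minus MS_W less C_O minus C_W) is given beside it; adjusted over all genes, its p lay between 0.199 and 0.665 for these genes, so none passed.

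The interaction was negative, with krill oil lower under CUMS, for Peg10 (-2.49, SE 0.378), Doc2b (-2.06, SE 0.278), Tacr3 (-1.46, SE 0.302), Galr1 (-0.661, SE 0.161), Htr1b (-1.35, SE 0.279) and Ecel1 (-3.26, SE 0.747). It was also negative for the cholinergic genes Chat (-1.91, SE 0.456) and Slc5a7 (-1.99, SE 0.607). Calb1 (-2.07, SE 0.781) and Rgs8 (-2.14, SE 0.824), both abundant in the cerebellum, followed, and in them MS_W95 was the highest MS_W library and C_O72 the highest C_O library. A positive interaction, with krill oil higher under CUMS, was found for Syt6 (2.73, SE 0.575), Grm2 (2.44, SE 0.626), Pparg (1.38, SE 0.307) and Casp1 (0.577, SE 0.173). Groups of 3 were too small for a test of single outlying samples.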

How the results depend on the processing

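The adjusted call of Mapt held in all 18 alternatives, with a log2FC from -2.43 to -2.28. Of 79 named DEGs, 41 kept an unadjusted p under 0.05 in every alternative that tested them, and 0 changed direction in any; 26 missed that threshold without MS_O46 and 22 without MS_W95. The DEG total was 602; it was 1146 without a filter, 153 at a mean FPKM of at least 1, 101 where the limma difference itself had to exceed the fold limit, 718 in the 10 libraries without C_O72 and MS_W95, and between 520 and 893 in the other alternatives that kept all 6 libraries. Genes past the adjusted threshold numbered 3 without a filter, 12 in the fit of MS_O and MS_W alone, 105 with array weights, 79 with DESeq2 and 58 in the 10 libraries, against 1. Leaving out each library in turn gave 463 to 936 DEGs (936 without MS_O13, of which 601 were higher), 1 to 13 genes past the adjusted threshold (13 without MS_W95, 10 without MS_O13, 2 without MS_W31 or MS_O46) and 0 to 8 for the interaction (8 without MS_W95, 5 without MS_O13). For the interaction DESeq2 gave 151 and the 10 libraries 31. The cause of these differences was not tested, beyond the number of genes tested under another filter. The share of DEGs on the higher side was 50.7%; it was 39.0% with edgeR, 57.7% with libraries centred on their median and 64.2% without MS_O13, and 35.6% to 52.4% in the others. The median log2FC of all genes lay between -0.0241 and 0.00497 under the other pseudocounts and scalings. No paired analysis was possible because the groups share no mouse numbers. Depth limits the genes below 1 FPKM, which make up most DEGs.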
